A study of Mus musculus with 12 samples.

Results

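The genes described here encode the proteins of the cytosolic ribosome, measured as mRNA in the brain of mice that model Alzheimer's disease. They were chosen by gene symbol: Rpl or Rps followed by digits and at most 1 letter, plus Rplp1, Rplp2 and Rpsa, without Rps15a, and present in the hippocampal as well as the cortical table. This gave 57 of the 18097 gene symbols on the array, of which 25 belong to the small (40S) and 32 to the large (60S) ribosomal subunit. The 57 genes had 74 probes, 43 genes with a single probe and 14 with several, and each gene was read from the probe that was brightest on average across the 12 arrays. Rplp0 is on this array under its older symbol Arbp and so was outside the rule.

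Male 3×TgAD mice, a strain carrying mutant human APP and tau transgenes and a mutant presenilin, received the tricyclic antidepressant amitriptyline (AMI), and the question was what the drug did to behavior and gene expression in the brain. Treatment began at 14 months of age and lasted 4 months, so that the mice were 18 months old when tissue was taken. The 2 groups received 100 µg per g body weight of AMI in the drinking water or plain water (vehicle), and both were given the thymidine analog BrdU. Hippocampus and cortex were each hybridized to Illumina Mouse Ref-8 BeadChips, with 3 arrays for each tissue and treatment. All animals carried the transgenes, so the comparison is between treated and untreated 3×TgAD mice and includes no non-transgenic brain. Which animal gave which sample is not given in the sources used here, so that p-values measure the spread between these samples only.

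A ribosome is built from ribosomal RNA and a set of proteins, most of which are needed in a single copy per particle. The small subunit reads the mRNA, and the large subunit joins the amino acids and guides the new chain out through its exit tunnel. Most vertebrate ribosomal protein mRNAs begin with a cytosine followed by a stretch of pyrimidines, the 5′ terminal oligopyrimidine (TOP) motif, through which the kinase mTORC1 controls their translation. Ribosomal protein S6, the product of Rps6, is the classic target of the S6 kinases, and its phosphorylated form is a common marker of neuronal activity. The arrays measured the mRNA of Rps6 and not this phosphorylation.

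The start sites of some of these genes are shown because a pyrimidine stretch near the start was more frequent among the members than among all genes, although fewer than 1 in 2 matched members had one by the definition used here. RefSeq promoter windows (GRCm38.p6, from 250 bases before to 50 bases after the annotated start) were found for 45 of the 57 genes. Each line gives the 30 bases centered on the start, 15 before and 15 from it on, 5′ to 3′ on the gene's strand, with the longest pyrimidine run in capitals.
Rps6 (chr4:86857353-86857382, minus strand): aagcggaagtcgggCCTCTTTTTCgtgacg
Rpl38 (chr11:114668565-114668594, plus strand): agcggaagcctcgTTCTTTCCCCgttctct
Rpl35 (chr2:39005117-39005146, minus strand): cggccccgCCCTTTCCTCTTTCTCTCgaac
Rps10 (chr17:27635230-27635259, minus strand): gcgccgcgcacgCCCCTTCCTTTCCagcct
Rpl7a (chr2:26910792-26910821, plus strand): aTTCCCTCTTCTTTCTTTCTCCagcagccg
Rps4x (chrX:102189377-102189406, minus strand): ctgaggctgggcggagcaacccaggCTCCa
In Rps6, Rpl38, Rpl35 and Rps10 the annotated first base is a C inside the run. Rpl7a has the longest run of the matched genes, 21 bases, and in Rps4x the longest run has 4. A run of 8 or more pyrimidines lay within these 30 bases in 20 of the 45 matched genes (44.4%), against 13.9% of all 27025 genes with a window. A C at the first base followed by 4 pyrimidines was found in 8 of 45 (17.8%), against 3.01% of all genes. The letters CCGGAAG, searched on both strands of the whole window, occurred in 21 of 45 (46.7%), against 9.93%. TATAAA, searched in the same way, occurred in 4 of 45 (8.89%), against 15.7%. These are matches of letters around annotated starts.

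The probes of 51 genes, 24 of the small and 27 of the large subunit, were detected in each tissue (Illumina's detection p did not exceed 0.05 on 3 or more of its 6 arrays) and could be tested. The chosen probes of Rpl14, Rpl17, Rpl39l, Rpl6, Rplp2 and Rps23 were detected on no array, and no level is given for them. Those of Rpl3l, Rpl21 and Rpsa were detected but dim, and the mean signal of Rpl21 was 113.0 in the hippocampus and 123.4 in the cortex. Undetected probes had a median signal of 52.2 to 73.2, depending on the array. At the other end, ribosomal protein genes supplied between 8 and 14 of the 100 brightest probes of each array. The probe of Rpl23 was the brightest of all on 5 arrays and among the 10 brightest on all 12. After the normalization described next, its replicates were the most variable of all members in each tissue. Its deposited signals stayed between 35958 and 46476 in the hippocampus and between 22389 and 27018 in the cortex. Signals were converted to log2 and brought to a common mean and spread within each array (z normalization). A normalized value of 0 is then the average probe of an array. Because each array was divided by its own SD, 1 unit is 1 log2 step only on an array of mean spread. The array SDs ran from 1.42 to 1.85.

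Amitriptyline was not accompanied by a change in any ribosomal protein gene in the hippocampus that passed the test. None of the 51 genes reached an adjusted p below 0.05 with limma and Benjamini-Hochberg adjustment over all 13163 probes tested, of which 0% did, and the lowest adjusted p among the members was 1. At an unadjusted p of 0.05 or less the count was again 0 members, against 2.35% of all probes, and the methods' test without limma's shared variance also gave 0. The median difference between AMI and vehicle was -0.09 log2 units, against 0.01 for all probes, and 39 of the 51 genes lay below 0 while 55% of all probes lay above it. This direction depended on the scaling and on single arrays. With quantile normalization 18 genes and with neqc 17 lay above 0, as against 12 with z normalization, but with median centring it was 37 (median 0.07, as for all probes), and without vehicle array 1 or without AMI array 2 it was 29 (median 0.04 each). By subunit the median difference was -0.12 for the small and -0.05 for the large subunit. No member had all 3 AMI arrays on one side of all 3 vehicle arrays, which 7.89% of all probes had.

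Rps6 had the lowest p of the hippocampal comparison. Its normalized values were 4.54, 4.23 and 4.43 on the AMI arrays and 4.79, 4.61 and 4.49 on the vehicle arrays, a difference of -0.23 (SE 0.12, unadjusted p = 0.0999 in limma, adjusted p = 1). Vehicle arrays 1 and 2 were above every AMI array, while vehicle array 3 lay under AMI array 1.

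The 5 lowest differences in the hippocampus were those of Rpl23, Rps25, Rpl29, Rps2 and Rps14, and all 5 were smaller than the range of the arrays within either group. Rpl23, a large-subunit protein that faces the small subunit, read 9.41, 7.18 and 7.60 with AMI and 9.26, 7.96 and 8.06 with vehicle. Its difference of -0.36 (SE 0.55) came with a 95% interval from -1.63 to 0.90, the widest of the set. In each treatment the array numbered 1 was more than 1 unit above the others of its group in these normalized values. In the deposited signals it was instead the lowest of its group. It read 41186 with vehicle and 35958 with AMI, where the next lowest arrays read 42308 and 37307. Rps2, which lines the path by which mRNA enters the small subunit, read 6.16, 5.54 and 5.81 with AMI and 6.35, 5.91 and 6.02 with vehicle (difference -0.25, SE 0.18). Rps14, at the mRNA exit, read 7.32, 6.27 and 6.50 with AMI and 7.41, 6.62 and 6.78 with vehicle (difference -0.24, SE 0.29). In both genes the highest array of each group was again array 1, which had the lowest deposited signal of its group. Rps25, a small-subunit protein used by viral internal ribosome entry sites, differed by -0.26 (SE 0.22), and Rpl29 differed by -0.25 (SE 0.24).

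The highest hippocampal differences were those of Rpl30, Rpl7a, Rps24, Rpl22 and Rps3a. Rpl30, which can bind and repress the splicing of its own transcript in yeast, read 1.93, 1.66 and 2.51 with AMI and 1.74, 1.86 and 1.73 with vehicle. The difference of 0.26 (SE 0.20) rested on AMI array 3, and AMI array 2 was the lowest of the 6. Rpl7a, a large-subunit protein, read 3.37, 3.71 and 3.64 with AMI and 3.46, 3.36 and 3.43 with vehicle (difference 0.16, SE 0.12). Rps24, Rpl22 and Rps3a each differed by 0.07.

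Genes with a particular role in or outside the ribosome gave values of the same small size. Rps19, the gene most often mutated in Diamond-Blackfan anemia, differed by -0.24 (SE 0.16) in the hippocampus. Rpl13a, a common reference gene for quantitative PCR, differed by -0.18 (SE 0.11) and Rpl3, at the peptidyl transferase center, by -0.13 (SE 0.28). Rpl3l, the muscle form of Rpl3, was near background and differed by -0.12 (SE 0.11). Rplp1, of the stalk that recruits elongation factors, differed by -0.04 (SE 0.27), Rps27a, made as a fusion with ubiquitin, by -0.02 (SE 0.17), and Rps27l, the p53-inducible paralogue of Rps27, by 0.05 (SE 0.13). Rpsa, the laminin receptor protein of the small subunit, differed by 0.06 (SE 0.11), Rpl38 by -0.08 (SE 0.30) and Rps4x by -0.07 (SE 0.15). None of these values exceeded 2 standard errors.

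**Figure D1:**
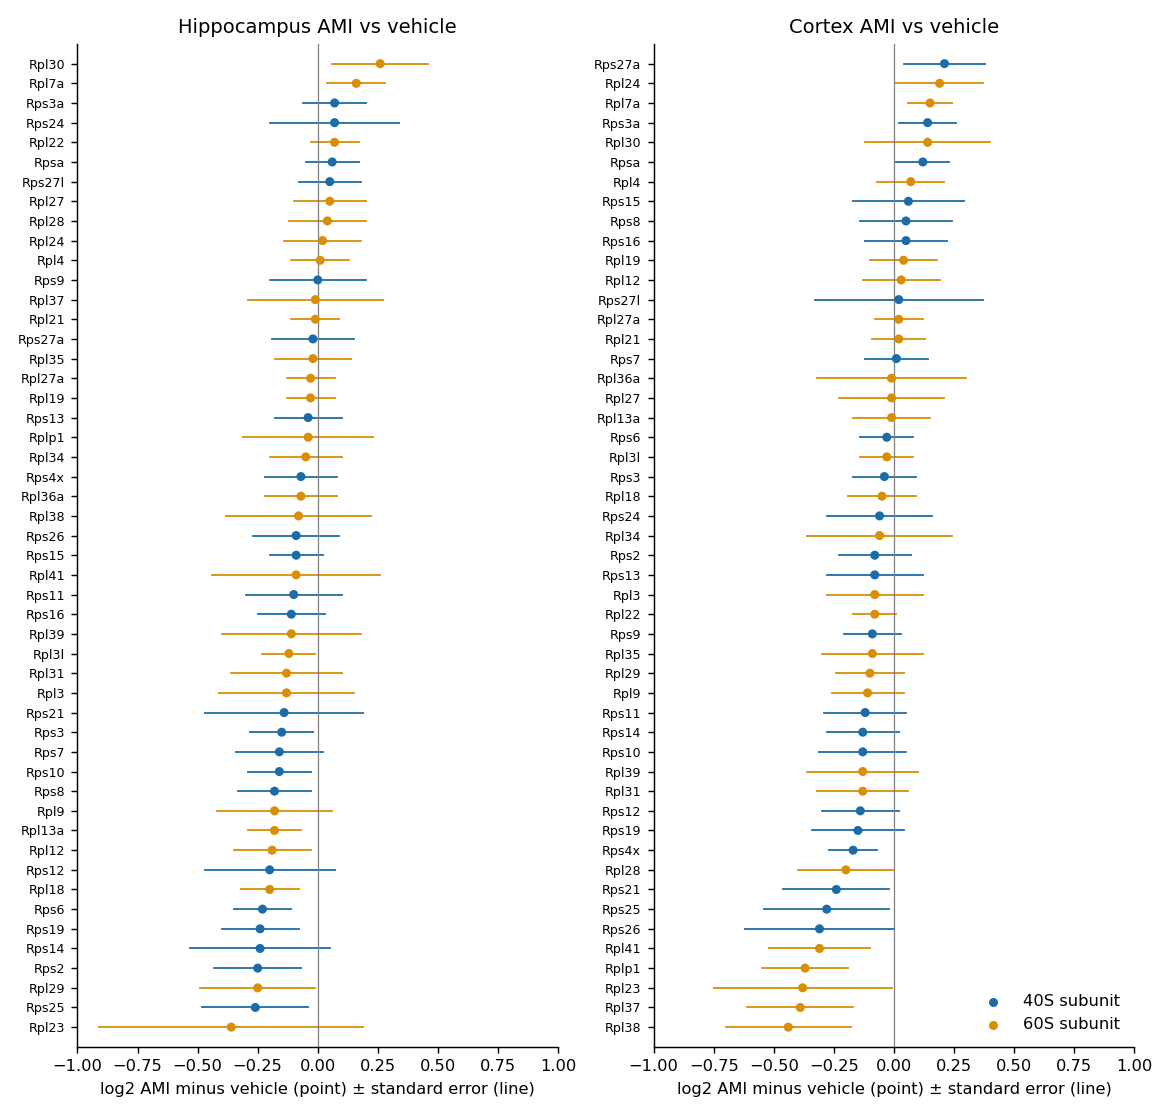
Difference between AMI and vehicle for 50 of the 51 tested genes in hippocampus and cortex, in log2 units of the normalized signal, with lines of 1 standard error to each side from limma and colors for the 40S and 60S subunit. Under z normalization, which is plotted, more genes lie below 0 than above it in each tissue, a balance that turns with median centring in both and with quantile normalization and neqc in the cortex, and no gene passed the test.

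In the cortex the picture was similar. No member passed an adjusted p of 0.05 in limma (0% of the 12944 probes tested did), and 0 members against 6.28% of all probes had an unadjusted p of 0.05 or less. The median difference was -0.06 log2 units, against 0.02 for all probes, and 34 of 51 genes lay below 0, while 57.1% of all probes lay above it. With other scalings the balance turned, with 31 genes above 0 under quantile normalization (median 0.03) and under neqc (0.04) and 39 under median centring (0.07, against 0.06 for all probes). It also turned without vehicle array 1, with 29 genes above 0 (median 0.04). The small subunit had a median of -0.07 and the large subunit one of -0.06. Groups did not overlap for 2 of 51 genes, against 12.2% of all probes (8.1% with AMI higher and 4.13% with AMI lower).

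These 2 genes were Rpl7a and Rps4x. Rpl7a read 0.96, 1.09 and 0.96 with AMI and 0.95, 0.82 and 0.77 with vehicle, a difference of 0.15 (SE 0.09, adjusted p = 0.825 in limma). Rps4x, the X-linked gene for the small-subunit protein S4, read 5.07, 4.94 and 5.09 with AMI and 5.35, 5.12 and 5.13 with vehicle, a difference of -0.17 (SE 0.10, adjusted p = 0.825). In each the gap between the nearest arrays of the 2 groups was far smaller than the spread within a group.

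The lowest cortical differences belonged to Rpl38, Rpl37, Rpl23, Rplp1 and Rpl41, all of the large subunit. Rpl38, a small protein required for the translation of some Hox mRNAs in the embryo, read 5.95, 6.22 and 5.82 with AMI and 6.77, 6.77 and 5.75 with vehicle. Its difference was -0.44 (SE 0.26, adjusted p = 0.82). Vehicle arrays 1 and 2 were above all AMI arrays, whereas vehicle array 3 was the lowest of the 6. Rpl37 read 6.12, 5.97 and 5.97 with AMI and 6.75, 6.66 and 5.82 with vehicle (difference -0.39, SE 0.22), and Rpl41, which encodes the smallest ribosomal protein, read 6.39, 6.29 and 6.44 against 6.98, 6.94 and 6.13 (difference -0.31, SE 0.21). The pattern was that of Rpl38, with vehicle array 3 alone below the AMI arrays. Rplp1 had the lowest p in the cortex, with 6.97, 6.54 and 6.94 on the AMI arrays and 7.30, 7.43 and 6.83 on the vehicle arrays (difference -0.37, SE 0.18, adjusted p = 0.784 in limma). Rpl23 differed by -0.38 (SE 0.37).

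Among the highest cortical differences, Rps27a read 2.25, 2.46 and 2.09 with AMI and 2.26, 2.22 and 1.69 with vehicle, a difference of 0.21 (SE 0.17). Rpl24 differed by 0.19 (SE 0.18), Rps3a by 0.14 (SE 0.12) and Rpl30 by 0.14 (SE 0.26). In Rps27a and Rpl24 vehicle array 3 was again the lowest of the 6, at 1.69 and 3.05. Of the genes singled out by role, Rps19 differed by -0.15 (SE 0.19), Rpl3 by -0.08 (SE 0.20), Rpl22 by -0.08 (SE 0.09), Rps6 by -0.03 (SE 0.11), Rpl3l by -0.03 (SE 0.11), Rpl13a by -0.01 (SE 0.16), Rps27l by 0.02 (SE 0.35) and Rpsa by 0.12 (SE 0.11).

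The treatment difference was also compared between the tissues. Its interaction with tissue passed the test for no member (0 of 12430 probes tested in both tissues did, 0%), and 0 members had an unadjusted p of 0.05 or less, against 3.03% of all probes. The median interaction was -0.04 log2 units and the lowest p was that of Rps6 (-0.19, SE 0.17, adjusted p = 1 in limma). These counts have a limit set by the number of arrays. The 95% interval lay inside 1 log2 unit on each side of 0 for 50 of 51 hippocampal and 48 of 51 cortical values, and inside 0.5 log2 units, a 1.41-fold change, for 27 and 25. With the replicate number as a block the median SE of the members in the hippocampus was 0.09 in place of 0.16. There 49 of 51 hippocampal intervals lay inside 0.5 log2 units. The labels do not give this pairing.

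Under z normalization, ribosomal protein mRNAs moved together from array to array, and this was larger than the treatment difference. For each gene the deviation of an array from the mean of the 6 arrays of its tissue was taken. In the hippocampus the median deviation of the 51 genes was 0.29, -0.11 and -0.04 on vehicle arrays 1, 2 and 3 and 0.14, -0.26 and -0.04 on AMI arrays 1, 2 and 3. On vehicle array 1, 44 of 51 genes were above their own mean, where 36.5% of all tested probes were. On AMI array 2 it was 6 of 51, against 65.3% of all probes, but 21 of 51 with quantile normalization and 46 of 51 with median centring. Both subunits moved alike, with 0.32 for the small and 0.29 for the large subunit on vehicle array 1 and -0.26 for each on AMI array 2.

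In the cortex, under z normalization, the arrays that stood out were all of the vehicle group. The median deviation was 0.23, 0.16 and -0.35 on vehicle arrays 1, 2 and 3, and 0.00, -0.04 and -0.07 on the AMI arrays. On vehicle array 3 only 6 of 51 genes were above their own mean, against 48.6% of all probes, and on vehicle array 1 it was 48 of 51, against 46.2%. The median over all tested probes stayed between -0.07 and 0.06 on every array.

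**Figure D2:**
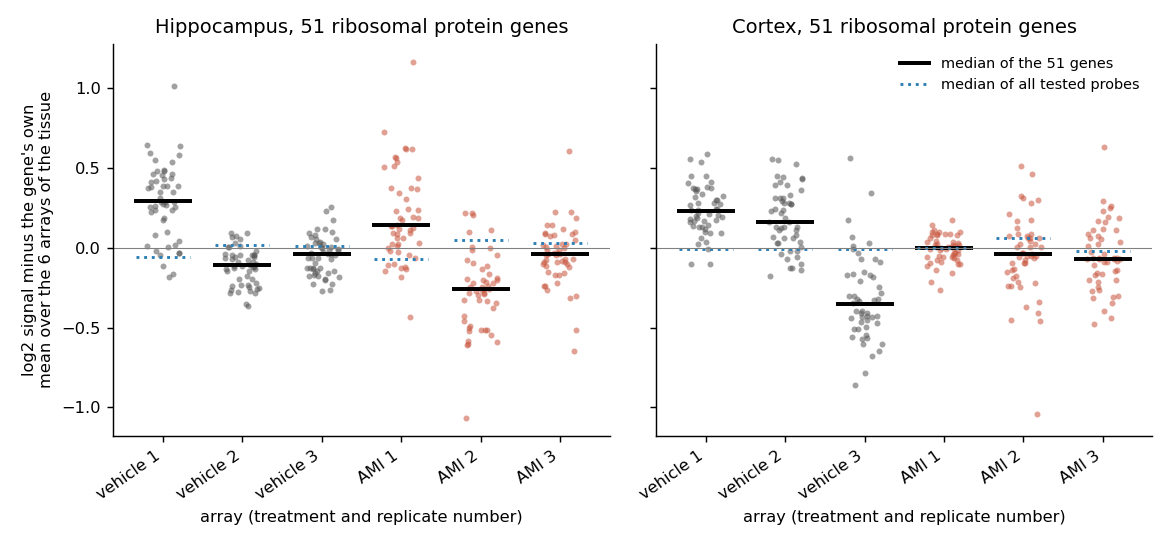
Deviation of each of the 51 tested genes from its own mean over the 6 arrays of the tissue, in log2 units, by array, with the median of the genes as a bar and that of all tested probes as a dotted line. Hippocampal vehicle array 1 is highest and AMI array 2 lowest, and in the cortex vehicle array 3 is lowest.

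After removal of the group means, pairs of members had a mean correlation over the 6 arrays of 0.41 in the hippocampus and 0.49 in the cortex, against 0.08 and 0.03 for all tested probes. The other TOP mRNAs had 0.35 and 0.16, while the mitochondrial ribosome had 0.06 (hippocampus) and 0.51 (cortex), so that the cortical value was as high in the mitochondrial set. These values describe pairs of genes that share their arrays and carry no test. They were computed under z normalization only, and the sets were not matched for signal. In each tissue 40 of 51 genes had a correlation above 0.5 with the median of the set. The genes least like the rest in the hippocampus were Rpl4 and Rpsa, with -0.90 and -0.84. Their mean hippocampal signals, 498.4 and 92.5, were low for members. In the cortex it was Rpl22, a protein at the rim of the exit tunnel, with -0.92. The replicate SD of a member had a median of 0.240 in the hippocampus and 0.269 in the cortex, against 0.146 and 0.133 for all probes.

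Part of this common movement depended on how arrays were scaled. The SD of log2 signals, by which z normalization divides, was 1.53 and 1.51 on the hippocampal arrays numbered 1 and between 1.71 and 1.85 on the other 4. With quantile normalization the hippocampal medians shrank to between -0.07 and 0.10. With median centring alone, which leaves the spread of an array as it is, they turned to -0.22 on vehicle array 1 and -0.39 on AMI array 1, while AMI array 2 turned from -0.26 to 0.20. Cortical AMI array 2 was at -0.04 with z normalization, 0.19 with quantile normalization and 0.46 with median centring. In the same order, cortical AMI array 3 was at -0.07, -0.11 and -0.30. Cortical vehicle array 3 was the lowest of its tissue under all 3 scalings, at -0.35 with z normalization, -0.43 with quantile normalization and -0.65 with median centring. On that array the median deviation of the 64 tested mitochondrial ribosomal protein genes was -0.25, that of 11 other TOP mRNAs 0.00 and that of 40 initiation factors 0.00. Among cell type markers, those of endothelium had a median deviation of 0.32 there and those of neurons -0.03. On hippocampal vehicle array 3 the choroid plexus markers, detected for 3 of 4 genes, had a median deviation of 2.92, while the ribosomal protein genes were at -0.04. The part of cell composition in these deviations was not tested, and in bulk tissue fewer cells of a type and less RNA per cell cannot be told apart.

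**Figure D3:**
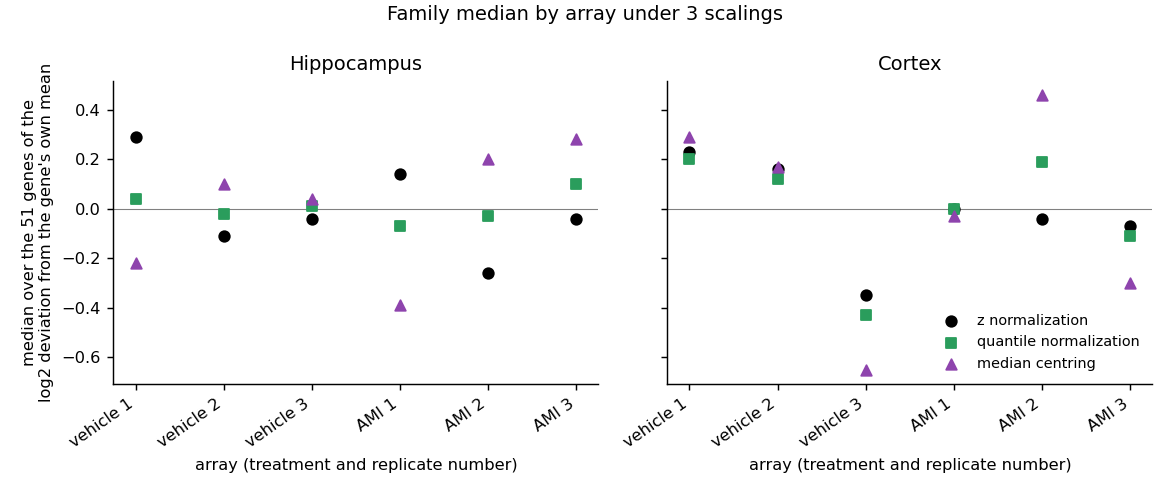
Median deviation of the 51 genes on each of the 12 arrays, in log2 units, under z normalization, quantile normalization and median centring. The hippocampal arrays numbered 1 change side between scalings, and cortical vehicle array 3 stays below 0.

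Under z normalization, the array that stood apart in the cortex decided how many genes came near the test. Without vehicle array 3, 20 of 51 genes were at an unadjusted p of at most 0.05 in limma, all of them lower with AMI, against 15.1% of all probes and 5.76% lower. The lowest adjusted p was then 0.125. The differences of Rpl38, Rps26, Rpl37 and Rps25 became -0.79, -0.72, -0.69 and -0.64. Leaving out any other cortical array gave at most 1 such gene. Weighting each array by its quality in limma gave 14 such genes, all lower with AMI, against 22.8% of all probes and 9.05% lower. The lowest adjusted p with these weights was 0.0518. Neither fit was run under another scaling. With quantile normalization the median deviation was 0.20 and 0.12 on vehicle arrays 1 and 2 and 0.19 on AMI array 2. With median centring these values were 0.29, 0.17 and 0.46.

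In the hippocampus the replicate numbers mattered in a similar way. Arrays of the same number had correlated deviations across all tested probes (0.611, 0.296 and 0.293), but vehicle array 2 and AMI array 3 also had 0.280. Under z normalization, the fit with the number as a block removed the offset of the arrays numbered 1. It then gave 8 of 51 genes an unadjusted p of 0.05 or less in limma, against 8.08% of all probes, and all 8 were lower with AMI, where 3.34% of all probes were. These were Rpl23, Rps25, Rpl29, Rps2, Rps14, Rps19, Rps6 and Rpl18, with adjusted p between 0.598 and 0.616. Without AMI array 1 there were 7 such genes, 6 lower and Rpl7a higher, against 7.29% of all probes, and Rpl23 differed by -1.06 (SE 0.36). Leaving out any other hippocampal array gave at most 1. These fits were run under z normalization only. With quantile normalization the members' median deviation on vehicle arrays 1, 2 and 3 was 0.04, -0.02 and 0.01. On AMI arrays 1, 2 and 3 it was -0.07, -0.03 and 0.10. With median centring it was -0.22, 0.10 and 0.04 with vehicle and -0.39, 0.20 and 0.28 with AMI. On AMI array 2, where members were lowest under z normalization but not under the other scalings, the oligodendrocyte markers had a median deviation of -0.50, and their part in the difference was not tested. All 5 of these markers had lower means with AMI in the hippocampus, with a median of -0.50 log2 units. Their median deviation ranged from -0.09 to 0.35 over the vehicle arrays and from -0.50 to -0.09 over the AMI arrays.

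Under z normalization, members with a higher signal tended to have a lower treatment difference. Across the 51 genes, Spearman's correlation of the difference with the mean log2 signal was -0.33 for the hippocampal and -0.70 for the cortical comparison. With quantile normalization it was 0.04 and -0.13. With median centring it was 0.04 and -0.38. This is a correlation across genes measured on the same arrays, and carries no test.

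Other genes of the translation apparatus did not change with AMI at an adjusted p of 0.05 in either tissue. The median difference of 11 other TOP mRNAs, among them those of the elongation factors, was 0.00 in the hippocampus and 0.02 in the cortex. It was 0.00 and -0.01 for the initiation factors, 0.08 and 0.02 for mTORC1 and S6 kinase genes, -0.02 and 0.06 for ribosome biogenesis and -0.06 and 0.03 for the mitochondrial ribosome. At an unadjusted p of 0.05 or less in limma, 1 gene of these lists was higher and 1 lower in the hippocampus. Among all probes 1.44% and 0.904% were. In the cortex 4 were higher, against 4.36% of all probes, with 1.92% of all probes lower. In the order above, the lists held 11, 41, 10, 13 and 65 tested genes in the hippocampus. In the cortex they held 11, 40, 9, 13 and 64.

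The tissues differed more than the treatments. Between hippocampus and cortex, 17 of 51 ribosomal protein genes passed an adjusted p of 0.05 in limma, against 42.4% of the 12430 probes tested in both tissues, or 33.3% of the members. Of the 17, 13 were higher and 4 lower in the hippocampus, against 23.9% and 18.5% of all probes. The median difference of the members was 0.21 log2 units, against 0.02 for all probes. The 2 tables also came from different software (BeadStudio 3.4 and GenomeStudio 1.1.1), so tissue, table and software cannot be told apart. The split of 13 to 4 depended on scaling. It was 25 to 3 with quantile normalization, where 54.9% of members and 46.6% of all probes were called. It was 23 to 3 with neqc (51% of members and 46.5% of all probes). With median centring, which moved the median of all probes to 0.21, it was 41 to 0 (80.4% and 39.6%). When the median of the ribosomal protein genes was set equal on all arrays it was 3 to 4 (13.7% and 18.2%). Whether members were called more or less often than other probes thus depended on the scaling. Of the tissue markers, Prox1 and C1ql2 of the dentate gyrus were higher in the hippocampus (1.17 and 3.22 log2 units), Tbr1, Cux2 and Rorb were higher in the cortex (-1.87, -0.77 and -0.37), and Fezf2 went against its tissue (0.81). Markers of cell types differed as well. All 5 microglial markers passed the test as higher in the hippocampus (median 0.48). The medians were -0.40 for 5 oligodendrocyte markers (3 passed as lower), -0.32 for 3 neuronal markers (2 lower), -0.27 for 5 endothelial markers (1 lower) and -0.16 for 5 astrocyte markers (1 higher, 2 lower). Their part in the members' difference was not tested.

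**Figure D4:**
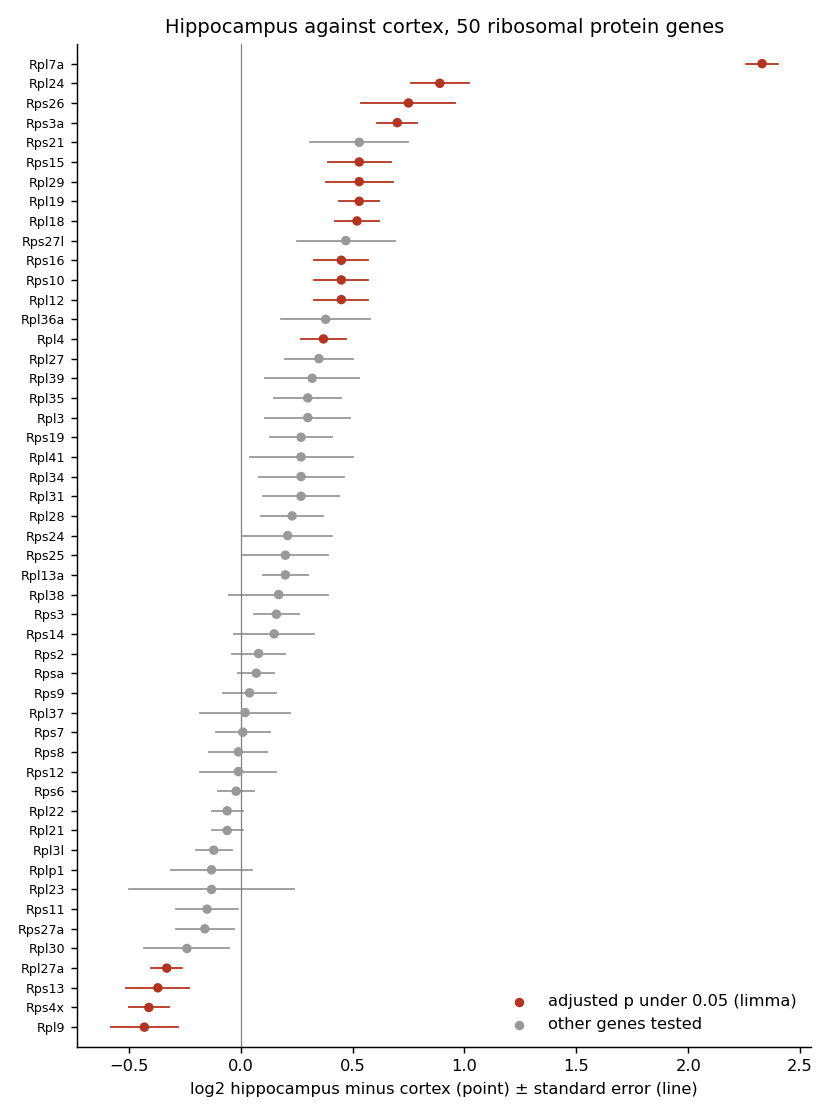
Difference between hippocampus and cortex for 50 of the 51 tested genes, in log2 units of the normalized signal, with lines of 1 standard error to each side from limma and genes at an adjusted p under 0.05 in red. Rpl7a stands at 2.33, and the other genes shown lie between -0.43 and 0.89.

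Rpl7a differed by far the most. Its normalized values ranged from 3.18 over a median of 3.26 to 3.52 on the 6 hippocampal arrays and from 0.82 over 1.01 to 1.15 on the 6 cortical arrays. The difference was 2.33 log2 units (SE 0.07, adjusted p = 7.08e-10 in limma), 5.02-fold higher in the hippocampus on the normalized scale. It was 2.34 among vehicle and 2.32 among AMI arrays. In the deposited signals the hippocampal arrays lay between 853.9 and 2777 (median 1676). The cortical arrays lay between 219.3 and 400.1 (median 262.6), with no overlap. Rpl24, a large-subunit protein that forms a bridge to the small subunit, ranged from 4.46 to 4.96 (median 4.64) in the hippocampus and from 3.23 to 4.02 (median 3.85) in the cortex. Its difference was 0.89 (SE 0.13, adjusted p = 1.52e-04). Rps26, at the mRNA exit, was 0.75 higher (SE 0.21, adjusted p = 0.0109), although its hippocampal range of 4.48 to 5.11 met the cortical one of 3.33 to 4.63. Of the 17 genes, 12 kept their call in every alternative other than the centring on the ribosomal protein genes themselves, among them Rpl7a, Rpl24, Rps26, Rps3a, Rpl18 and Rpl19. That centring, added after seeing the data, removes the members' common difference by construction, and Rpl7a, Rpl24 and Rps26 kept their call under it too.

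Rps3a of the small subunit ranged from 1.70 to 2.13 (median 1.91) in the hippocampus and from 0.95 to 1.39 (median 1.26) in the cortex, a difference of 0.70 (SE 0.09). Its tissues did not overlap. Other genes that were higher included Rps15, Rpl29, Rpl19, Rpl18, Rps10, Rps16, Rpl12 and Rpl4, with differences between 0.37 and 0.53. Non-overlapping tissues, with the hippocampus higher, were seen for 7 members in all, against 13.2% of all probes. With the cortex higher they were seen for 1 member, against 8.79%, and the 2 directions together made up 22% of all probes. Tested within each treatment, 11 members differed between tissues among vehicle arrays, against 24.9% of all probes, and 8 among AMI arrays, against 26.1%.

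**Figure D5:**
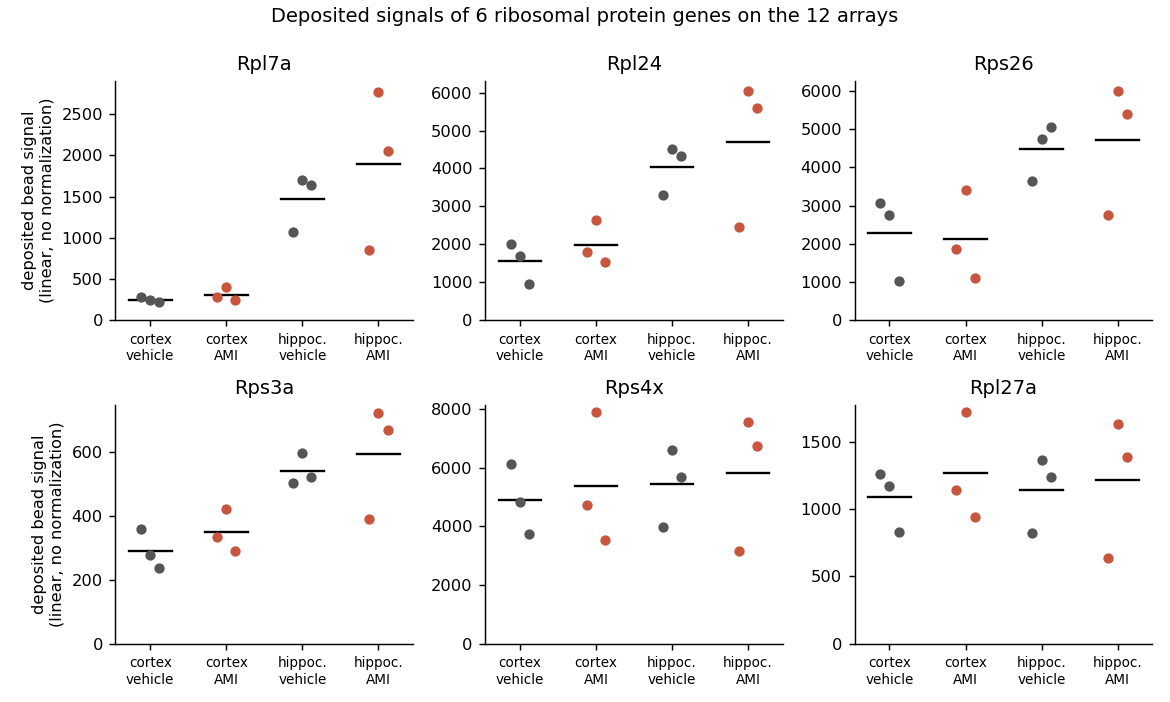
Deposited signal (linear intensity, not normalized) of 6 genes on each array, by tissue and treatment, with the group mean as a bar. Rpl7a separates the tissues completely, and the signals of Rps4x and Rpl27a overlap between them.

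The 4 genes with lower values in the hippocampus were Rpl9, Rps4x, Rps13 and Rpl27a. Rps4x ranged from 4.77 to 5.25 (median 4.97) in the hippocampus and from 5.24 to 5.67 (median 5.41) in the cortex, so that the tissues just met, and differed by -0.41 (SE 0.09, adjusted p = 0.00253). Rpl27a ranged from 2.74 to 2.94 (median 2.87) and from 2.99 to 3.29 (median 3.22), without overlap, and differed by -0.33 (SE 0.07, adjusted p = 0.00214). Their deposited signals, 3166 to 7559 against 3530 to 7910 for Rps4x and 637.6 to 1636 against 830.8 to 1723 for Rpl27a, overlapped almost fully, and with median centring both were higher in the hippocampus (0.25 and 0.10). Rpl9 (-0.43, SE 0.15, adjusted p = 0.0387) and Rps13 (-0.37, SE 0.14, adjusted p = 0.0416) were near the threshold and also turned with median centring, to 0.37 and 0.15.

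Of the remaining named genes none passed the test between tissues. Rpl30 differed by -0.24 (SE 0.19), Rps27a by -0.16 (SE 0.13), Rplp1 by -0.13 (SE 0.18), Rpl3l by -0.12 (SE 0.08), Rpl22 by -0.06 (SE 0.07), Rps6 by -0.02 (SE 0.08) and Rpsa by 0.07 (SE 0.08). Rpl38 differed by 0.17 (SE 0.22), Rpl13a by 0.20 (SE 0.10), Rps19 by 0.27 (SE 0.14), Rpl3 by 0.30 (SE 0.19) and Rps27l by 0.47 (SE 0.22). With median centring 13 of the 15 members with a difference below 0 had one above 0, among them Rpl30, Rps27a, Rplp1, Rpl22 and Rps6. By role, the median difference was 0.30 over 5 genes at the rim of the exit tunnel, 0.33 over Rpl3 and Rpl4 at the peptidyl transferase center, 0.16 over 3 genes at mRNA entry and 0.45 over Rps14 and Rps26 at mRNA exit. Over all 24 small-subunit genes the median was 0.16 and over all 27 large-subunit genes it was 0.27.

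The probes of some genes that passed the test between tissues are printed because what a probe reads depends on where it lies in the transcript. The sequences are those of the array design, 5′ to 3′, and for Rpl7a and Rpl24 capitals mark the first ATG, at which the printed part turns from leader to coding sequence.
Rpl7a: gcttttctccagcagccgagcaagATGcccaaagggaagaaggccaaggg
Rpl24: cggcaggccgacatctatcaccATGaaggt
Rps3a: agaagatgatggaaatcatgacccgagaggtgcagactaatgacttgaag
Rps4x: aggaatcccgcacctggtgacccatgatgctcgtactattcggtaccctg
The probes of Rpl7a and Rpl24 begin at base 1 of their transcripts, and for Rpl24 the line shows its bases 21 to 50. Those of Rps3a and Rps4x begin at bases 521 and 408. The last 15 bases of the Rpl7a start window printed earlier lie within its probe. Over all 51 genes the Spearman correlation between the tissue difference and the position of the probe was -0.12, and the 10 genes with a probe in the first 100 bases had a median difference of 0.14.

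Several members had a further probe that gave another tissue difference. Of 8 genes with at least 2 tested probes, 5 had a call in 1 probe and not in another. Rps3, an mRNA entry protein with a further role in DNA repair, differed by 0.16 in the chosen probe and by 1.14 in the other (adjusted p = 3.93e-05 in limma). Rpl31 differed by 0.27 and -0.64, Rpl29 by 0.53 and 0.07, Rpl38 by 0.17 and 0.63, and Rps9 by 0.04 and 0.36. The chosen probe of Rps9 shares a stretch of at least 25 bases with a gene of another symbol (LOC546015), so its signal may hold both. Rpl7a had no further probe.

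Related gene groups differed between the tissues too. These counts stand beside 23.9% higher and 18.5% lower among all probes. Among 64 mitochondrial ribosomal protein genes, 34 were higher and 2 lower in the hippocampus, with a median of 0.30. Of 13 ribosome biogenesis genes 5 were higher and 0 lower, with a median of 0.22, among them Bop1 (0.78) and Pes1 (0.76), which work together in processing the RNA of the large subunit. The 11 other TOP mRNAs had a median of -0.15, with 4 higher and 1 lower, and Pabpc1, the cytoplasmic poly(A) binding protein, was 1.01 higher (SE 0.10). The 40 initiation factors had a median of 0.06, with 10 higher and 5 lower, and the 9 mTORC1 and S6 kinase genes one of 0.02, with 2 higher and 1 lower.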

How the data were processed

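The members and gene lists were chosen with earlier results of these data known. A table of non-normalized signals per tissue was used. Per the file headers, the authors deposited linear bead intensity without background subtraction and a detection p-value for each of 25697 probes and array, from BeadStudio 3.4 (hippocampus) and GenomeStudio 1.1.1 (cortex). Genes were named by the symbols in these tables. All tested members enter the counts, and the values of 1 of them are not reported here.

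Intensities were log2 transformed, and z normalized within each array (times the arrays' mean SD), as the study's methods name. Testing was limited to probes whose detection p did not exceed 0.05 on 3 or more of a tissue's 6 arrays (in both tissues for comparisons over 12 arrays), with lmFit and eBayes of limma 3.58.1 (R 4.3.3). Values from the fit over 12 arrays are scaled to those arrays and differ slightly from those within a tissue. P-values were adjusted over all tested probes. The fits were tested on simulated data. Between 49 and 51.7% of probes were detected per array, and precision is limited by 3 arrays per group.

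The text names the 5 highest and 5 lowest members of each comparison, every member past a threshold, and members with a particular role; genes named with the block or without an array, and Rpl4 and others unlike the rest, were chosen after their values were seen. In the hippocampus the deviations of arrays with the same replicate number correlated at 0.611, 0.296 and 0.293, from the data and not the labels. Arrays of different number ranged from -0.472 to 0.280, so only the pair numbered 1 stood clearly apart. In the cortex the same number gave -0.061, 0.329 and 0.333, and different numbers gave -0.421 to 0.271. Alternatives covered quantile normalization, median centring, neqc, detection filters, array weights, the methods' t-test, the mean of all detected probes, a replicate block and each array left out. Centring on the ribosomal protein genes and leaving out both hippocampal arrays numbered 1 were added after seeing the data.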

Additional observations from a re-analysis of the deposited data

How the results depend on the processing

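No member reached an adjusted p below 0.05 with AMI in either tissue, or for the interaction, under any alternative run (lowest 0.0518, in the cortex with array weights), and the median treatment difference of the members moved by less than the replicate spread (-0.22 to 0.07 log2 units in the hippocampus, -0.20 to 0.07 in the cortex, -0.14 to 0.10 for the interaction); its sign was not stable, being 0.07 in each tissue with median centring and, in the cortex, 0.03 with quantile normalization and 0.04 with neqc. The replicate block could not move the hippocampal, cortical and interaction medians of -0.09, -0.06 and -0.04, since every group holds the same numbers. With it 0 members were called. For the interaction and the tissues, the block joined the hippocampal and cortical arrays of the same treatment and number. The labels do not give this pairing, and the deviations of these arrays correlated between -0.347 and 0.086. With this block 17 members still differed between tissues. Between tissues, 17 members were called and the count was 28 with quantile normalization, 26 with neqc, 41 with median centring and 7 when the members were centred on their own median; the median of 0.21 became 0.84 and -0.02 under the last 2. Leaving out single arrays gave counts from 15 to 18 and medians from 0.11 to 0.29. With median centring Rpl22 (0.40), Rpl27a (0.10), Rpl9 (0.37), Rplp1 (0.76), Rps13 (0.15), Rps4x (0.25) and Rps6 (0.53) turned to higher in the hippocampus, as did 13 of the 15 members below 0 in all, Rps27a (0.17) and Rpl30 (0.04) among them. The cause was not tested. The methods' t-test called 0 members at an unadjusted p of 0.05 in either tissue, and 0 after Benjamini-Hochberg adjustment. Signals near background (Rpl3l, Rpl21 and Rpsa) limit what could be seen for those genes, and 6 members were not detected at all.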
